A study of Mus musculus with 6 samples.

Results

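The 10 genes described here encode the core machinery of centriole duplication and the centrosomal and spindle-pole proteins whose loss causes inherited primary microcephaly: *Plk4*, *Stil*, *Sass6*, *Cep152*, *Cep192*, *Cep135*, *Cenpj*, *Cdk5rap2*, *Aspm* and *Wdr62*. They were chosen by name, all 10 were found among the 24062 genes of the count table, and all 10 were among the 16904 genes that were tested. Their mRNA was measured by RNA-seq in retinae of C57BL/6 mice (C57BL/6N in the methods of the study) at postnatal day 21 (P21), with 3 *Rb1/p107* DKO and 3 *Rb1/p107/Hells* TKO retinae and 1 library per retina. Both groups carried *Chx10-Cre*, which recombines floxed alleles in early retinal progenitors, a floxed *Rb1* and a germline null *p107* (*Rbl1*), and the TKO group carried in addition a floxed *Hells*, which encodes a chromatin remodeler of the SNF2 family. *Chx10-Cre* acts in a mosaic pattern, so part of the cells of each retina kept intact floxed alleles. No retina with intact *Rb1* and *p107* was among the samples analysed here, so every difference below is TKO against DKO and none is against a normal retina. The comparison asks which transcripts differ when *Hells* is deleted by the same Cre as *Rb1* in retinae null for p107. The study reports ectopic division of cells in *Rb1/p107* DKO retinae.

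A dividing cell copies its pair of centrioles in each cycle. PLK4, a kinase that is brought to the parent centriole by the scaffold proteins CEP192 and CEP152, phosphorylates STIL, which recruits SAS-6 (*Sass6*) to build the cartwheel of the daughter centriole. CEP135 and CPAP (*Cenpj*) connect the cartwheel to the microtubule wall and lengthen it. CDK5RAP2 anchors the γ-tubulin complexes that nucleate microtubules in the pericentriolar material, and WDR62 and ASPM act at the spindle poles in mitosis. Cells that have left the cycle keep their centrioles. In photoreceptors the older centriole is the basal body of the cilium from which the outer segment is built, so a mature retina uses several centriole proteins without dividing.

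Sequence upstream of these genes is shown first, because cell-cycle genes are often read through short promoter elements: E2F sites, at which RB-family proteins act, and cell cycle genes homology region (CHR) elements and CCAAT boxes, which are common in genes read in G2 and mitosis. Promoter windows of 300 bases, 250 before and 50 after the annotated start, were available from RefSeq (GRCm38.p6) for 9 of the 10 genes, with *Wdr62* in 2 overlapping windows and *Cep192* in none. Both strands were searched for E2F-type letters (TTCCCGC, its variant TTGGCGC, the variant TTCGCGC and a further variant, TTGCCGC), CHR-type letters (TTTGAA or TTCGAA, the second of which reads the same on both strands) and CCAAT. Of 32851 windows of this length over all genes, 9.57% held an E2F-type match, 19.2% a CHR-type match, 37.4% at least 1 CCAAT, and 3.37% at least 3 CCAAT. The count of at least 3 CCAAT was looked up after the windows of these genes had been seen. The 4 genes with the largest differences between the groups and *Cep152*, which differed least, are printed 5′ to 3′ on the strand of the gene, from 250 bases before the start to 20 bases into the transcript, with matches in capitals (ATTGG is CCAAT on the other strand, and GCGGGAA is TTCCCGC on the other strand).
*Aspm*, chr1:139454523-139454792, plus strand: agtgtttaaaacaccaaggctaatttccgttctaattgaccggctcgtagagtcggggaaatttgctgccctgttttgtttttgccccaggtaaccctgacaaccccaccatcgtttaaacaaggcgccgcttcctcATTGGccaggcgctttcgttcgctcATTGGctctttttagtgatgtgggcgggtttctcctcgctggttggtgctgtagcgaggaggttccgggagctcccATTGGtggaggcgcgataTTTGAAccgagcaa
*Stil*, chr4:114999868-115000137, plus strand: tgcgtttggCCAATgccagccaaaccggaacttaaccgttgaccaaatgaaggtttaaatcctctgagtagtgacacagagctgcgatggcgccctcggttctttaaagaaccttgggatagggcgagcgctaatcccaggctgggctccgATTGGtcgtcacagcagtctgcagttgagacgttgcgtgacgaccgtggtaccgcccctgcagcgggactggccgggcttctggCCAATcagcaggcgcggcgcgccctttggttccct
*Wdr62*, chr7:30280402-30280671, minus strand: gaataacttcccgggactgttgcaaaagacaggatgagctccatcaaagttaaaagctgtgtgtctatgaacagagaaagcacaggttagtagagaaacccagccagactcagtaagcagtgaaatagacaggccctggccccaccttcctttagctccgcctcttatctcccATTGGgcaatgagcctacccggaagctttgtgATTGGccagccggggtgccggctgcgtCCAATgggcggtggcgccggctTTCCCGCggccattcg
*Plk4*, chr3:40799701-40799970, plus strand: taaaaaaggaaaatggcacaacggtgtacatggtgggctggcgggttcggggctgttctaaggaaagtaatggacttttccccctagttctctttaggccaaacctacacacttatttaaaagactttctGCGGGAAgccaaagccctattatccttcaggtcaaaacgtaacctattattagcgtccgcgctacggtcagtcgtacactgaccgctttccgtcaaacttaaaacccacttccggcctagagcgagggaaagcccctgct
*Cep152*, chr2:125625094-125625363, minus strand: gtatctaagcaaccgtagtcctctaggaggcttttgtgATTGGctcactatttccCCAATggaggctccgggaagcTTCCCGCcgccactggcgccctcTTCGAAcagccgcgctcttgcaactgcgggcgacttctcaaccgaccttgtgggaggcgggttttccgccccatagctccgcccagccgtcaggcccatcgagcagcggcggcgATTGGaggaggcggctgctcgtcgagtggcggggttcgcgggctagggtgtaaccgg
In these windows *Aspm* held 3 CCAAT and 1 CHR-type match, which began 6 bases after the start. *Wdr62* held 3 CCAAT and 1 E2F-type match in each of its windows, and *Plk4* held 1 E2F-type match and neither of the others. *Stil* held 3 CCAAT and 2 E2F-type matches, both of them in the last 30 bases of the window and so past the stretch printed. *Cep152* held all 3 kinds, with 3 CCAAT, 1 E2F-type and 1 CHR-type match. Of the genes not printed, *Sass6* and *Cdk5rap2* held 1 CHR-type match each, *Cep135* held 1 CCAAT, and no match was found in the window of *Cenpj*. Windows with 3 CCAAT were therefore found both in genes that fell (*Aspm*, *Stil* and *Wdr62*) and in *Cep152*. These are matches of letters and not measured binding.

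The libraries held between 10343907 and 14203098 read pairs counted on genes, and any pair of retinae of the same genotype differed by more than counting noise (chi-square over its degrees of freedom at least 8.61 and at most 25.3). Normalized counts here are counts divided by the library size after trimmed mean of M values (TMM) scaling, relative to the mean of these sizes, and tests are edgeR's quasi-likelihood test with Benjamini-Hochberg adjustment over all 16904 genes tested. *Hells* had 60.8, 68.4 and 83.4 normalized counts in TKO and 678, 523 and 395 in DKO replicates 1 to 3. It was lower in every TKO library (log2 fold change -2.91, adjusted p = 0.00359 from edgeR). Counts over the whole gene do not show the deletion of its floxed exon, so they do not establish the genotype. *Rb1*, floxed in both groups, had 814, 746 and 682 normalized counts in TKO and 617, 583 and 572 in DKO replicates 1 to 3, higher in every TKO retina (log2 fold change 0.34, adjusted p = 0.0388 from edgeR). *Rbl1* had 27.5, 20.0 and 13.5 in TKO and 15.1, 16.6 and 24.2 in DKO, with overlap. TKO replicate 2 stood apart in RNA of lens genes, with 3 of 7 lens markers higher in TKO by adjusted p and a sum over the 7 of 238 CPM (counts scaled to a fixed library total), against 37.4 to 44.3 in the other TKO and 8.19 to 8.33 in the DKO libraries. The counts of genes that fell are therefore also given with it left out. All markers of the retinal cell types that had been listed were detected in at least 1 library. Rod markers passed an adjusted p of 0.05 as higher in TKO for 5 of 5 genes, with sums of 24290 to 50010 CPM in TKO and 8249 to 15810 CPM in DKO, while 3 of 5 microglia markers passed as lower, with sums of 51.4 to 82.5 and 94.9 to 139 CPM. Of cone markers 2 of 5 passed as higher in TKO (sums of 431 to 1190 and 299 to 488 CPM) and of Müller glia markers 2 of 4 (sums of 3279 to 3964 and 1944 to 2153 CPM). Over all genes tested, 7.35% passed as higher and 9.2% as lower. The marker counts were not repeated with a retina left out. The part of these cell types in the differences below was not tested. In bulk retina, fewer cells of a type and less RNA per cell cannot be told apart, and this applies to each gene below.

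Of the 10 genes, 4 fell in TKO retinae by the full call rule (adjusted p of at most 0.05 from edgeR, a log2 fold change of at least 1 in size and a mean of at least 10 normalized counts): *Aspm*, *Stil*, *Wdr62* and *Plk4*. Over all genes tested, 4.38% were called lower by this rule. By the adjusted p alone 6 of 10 fell, with *Cenpj* and *Cep192* added, against 9.2% of all genes tested, and 0 rose, against 7.35% of all genes tested. For 8 of 10 genes every TKO retina lay below every DKO retina, which left out *Cep152* and *Cep135*, against 20.6% of all genes tested. The median log2 fold change was -0.77 over the 10 genes and -0.011 over all genes tested, and 9 of the 10 values were below 0. With TKO replicate 2 left out, 2 of the 10 genes were called lower, *Aspm* and *Wdr62*, and these also made up the count of 2 when DKO replicate 1 or DKO replicate 2 was the retina left out.

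**Figure D1:**
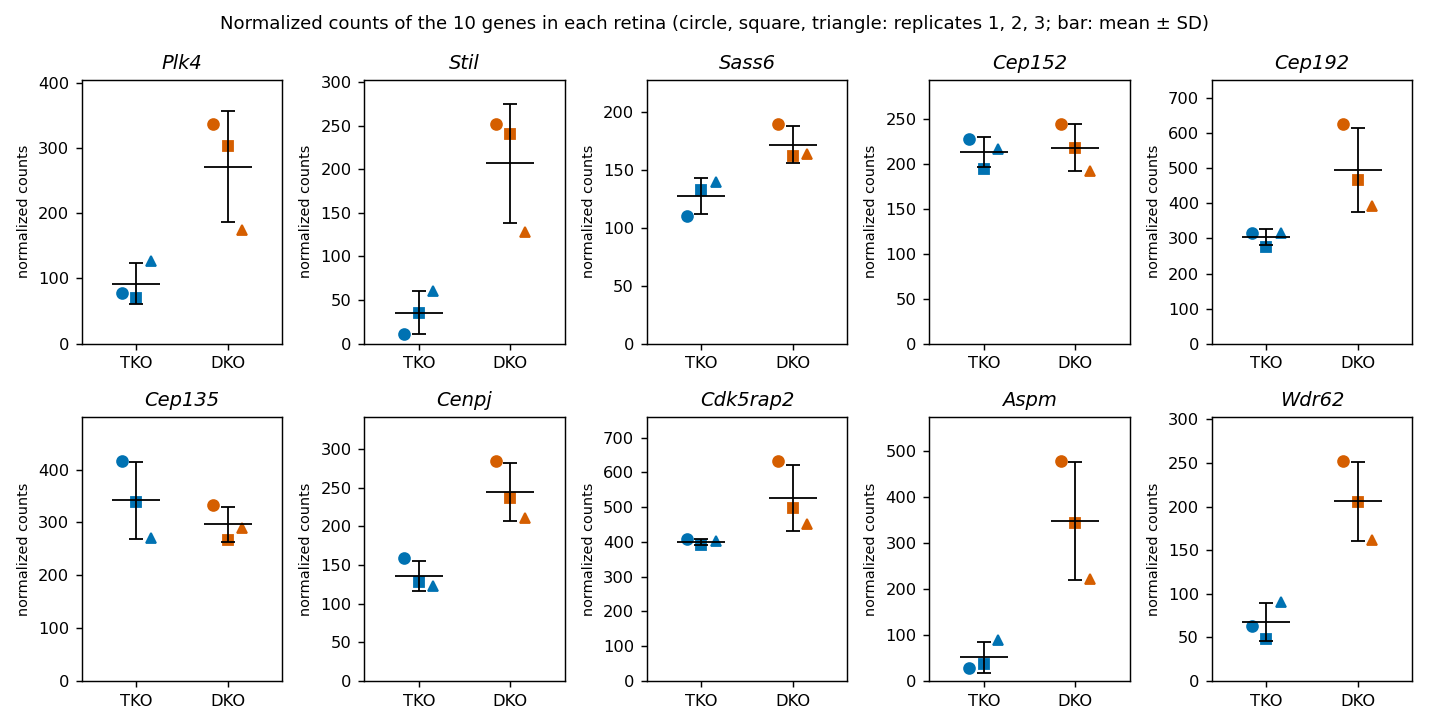
Normalized counts (vertical axis, from 0) of each of the 10 genes in the 3 TKO (blue) and 3 DKO (orange) retinae, with circles, squares and triangles for replicates 1, 2 and 3, a long bar for the group mean and whiskers for the SD. The groups do not overlap except in *Cep152* and *Cep135*, and DKO replicate 1 is the highest DKO retina for all 10 genes.

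*Aspm* and *Wdr62* encode microtubule-associated proteins of the spindle pole, which keep the poles focused and the spindle oriented in dividing progenitors. *Aspm* (chr1:139454772-139494091 of GRCm38, plus strand) had 27.5, 36.8 and 88.4 normalized counts in TKO replicates 1 to 3 and 477, 343 and 220.2 in DKO replicates 1 to 3. TKO replicate 3 was the highest TKO retina and DKO replicate 3 the lowest DKO retina, and the groups did not overlap. The means were 50.9 ± 32.8 in TKO and 347 ± 129 in DKO (SD, n = 3 each), or 6.87-fold higher in DKO. The fitted log2 fold change was -2.78 (standard error 0.431, 95% interval -3.77 to -1.79, adjusted p = 0.00782 from edgeR), the largest in size of the 10. With 1 retina left out at a time it stayed between -3.41 and -2.48 and passed an adjusted p of 0.05 in 6 of 6 edgeR fits.

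*Wdr62* (chr7:30240138-30280419, minus strand) had 63.1, 48.4 and 90.8 normalized counts in TKO replicates 1 to 3 and 252, 205 and 161 in DKO replicates 1 to 3. The highest TKO retina, again replicate 3, lay below the lowest DKO retina, again replicate 3. The means were 67.4 ± 21.5 and 206 ± 45.4 (SD, n = 3 each), or 3.07-fold higher in DKO, and the log2 fold change was -1.62 (standard error 0.260, 95% interval -2.21 to -1.02, adjusted p = 0.00821 from edgeR). Like *Aspm*, it passed in 6 of 6 edgeR fits with 1 retina left out, with an adjusted p of at most 0.0424. *Wdr62* shares 264 exonic bases with *Thap8* on the opposite strand, and the strand setting of the counting was not given in the sources used here, so reads of these genes may not be fully separated.

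*Plk4*, *Stil* and *Sass6* encode the kinase that starts duplication, its substrate and the protein of the cartwheel hub. *Plk4* (chr3:40800019-40816883, plus strand) had 78.0, 69.5 and 128 normalized counts in TKO replicates 1 to 3 and 338, 303 and 175 in DKO replicates 1 to 3. The groups did not overlap, and replicate 3 of each genotype lay nearest to the other group. The means were 91.7 ± 31.4 and 272 ± 85.6 (SD, n = 3 each), or 2.98-fold higher in DKO, with a log2 fold change of -1.57 (standard error 0.303, 95% interval -2.27 to -0.88, adjusted p = 0.0132 from edgeR). Leaving out TKO replicate 2, DKO replicate 1 or DKO replicate 2 gave an adjusted p from edgeR of 0.0617, 0.0555 and 0.0592, with log2 fold changes of -1.40, -1.39 and -1.49, and it passed 0.05 when any of the other retinae was left out.

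*Stil* (chr4:115000159-115043196, plus strand) was the least counted of the 10 in TKO replicate 1, with 10 read pairs, and had 33 and 49 read pairs in TKO replicates 2 and 3. On the normalized scale these were 11.5, 34.7 and 60.1, against 252, 239.9 and 128 in DKO replicates 1 to 3. The highest TKO retina lay well below the lowest DKO retina, and relative to their mean the TKO retinae differed more among themselves than for any other of the genes. The means were 35.4 ± 24.3 and 207 ± 68.6 (SD, n = 3 each), or 5.85-fold higher in DKO, with a log2 fold change of -2.55 (standard error 0.479, 95% interval -3.65 to -1.45, adjusted p = 0.0124 from edgeR). Leaving out the same retinae as for *Plk4*, TKO replicate 2, DKO replicate 1 or DKO replicate 2, gave an adjusted p from edgeR of 0.0589, 0.0536 and 0.0560, with log2 fold changes of -2.54, -2.38 and -2.42.

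*Sass6* (chr3:116594982-116631004, plus strand), whose product works in the same step as STIL, stood apart from both in size. It had 110.1, 133 and 139.9 normalized counts in TKO and 190.1, 162 and 164 in DKO replicates 1 to 3. The groups did not overlap, but the gap between them was narrow. The log2 fold change of -0.43 (95% interval -0.78 to -0.081) did not pass, with an adjusted p of 0.0895 from edgeR. It passed when the libraries were scaled by total counts only (-0.59, adjusted p = 0.0435 from edgeR), a scaling that moved the median of all genes from -0.011 to -0.17. *Sass6* shares 389 exonic bases with *Trmt13* and 1502 with the antisense gene *Gm42893*, both on the opposite strand.

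*Cep192* and *Cep152*, the scaffolds that bring PLK4 to the parent centriole, differed from each other. *Cep192* (chr18:67800107-67885170, plus strand) had 317, 277 and 317 normalized counts in TKO replicates 1 to 3, a narrow range, and 628, 466 and 392 in DKO replicates 1 to 3. The groups did not overlap, and the DKO retinae were the more spread out. The means were 303 ± 23.0 and 495 ± 121 (SD, n = 3 each), with a log2 fold change of -0.71 (standard error 0.172, 95% interval -1.10 to -0.31, adjusted p = 0.0277 from edgeR), which passed the p but not the fold of the call rule. With 1 retina left out it passed only when that retina was replicate 3 of either genotype. The adjusted p from edgeR was 0.0668 and 0.108 when TKO replicate 1 or 2 was left out, and 0.0672 and 0.0782 when DKO replicate 1 or 2 was left out.

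*Cep152* (chr2:125563088-125625113, minus strand) had 228, 195 and 216 normalized counts in TKO and 245, 218 and 192 in DKO replicates 1 to 3. The groups overlapped throughout. The means were 213 ± 17.0 and 218 ± 26.5 (SD, n = 3 each), with a log2 fold change of -0.034 and a 95% interval of -0.35 to 0.28 (adjusted p = 0.884 from edgeR). The interval leaves out a fall of the size measured for *Plk4*, *Stil*, *Aspm* or *Wdr62*.

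*Cenpj* and *Cep135* encode proteins of the centriole wall, and only the first passed the test. *Cenpj* (chr14:56526761-56575425, minus strand) had 158, 127 and 123 normalized counts in TKO and 284, 236 and 211 in DKO replicates 1 to 3. The groups did not overlap, and in both genotypes replicate 1 was highest and replicate 3 lowest. The means were 136 ± 19.3 and 244 ± 37.3 (SD, n = 3 each), or 1.79-fold higher in DKO, with a log2 fold change of -0.84 (standard error 0.166, 95% interval -1.22 to -0.46, adjusted p = 0.0142 from edgeR). It passed the p but not the fold of the call rule. Scaled by total counts only it reached -1.003 and passed both, which made 5 genes called of the 10. When TKO replicate 2 was left out its adjusted p from edgeR was 0.0670, and when DKO replicate 1 or 2 was left out it was 0.0588 and 0.0585.

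*Cep135* (chr5:76588698-76646466, plus strand) was the only gene of the 10 with a positive value. It had 416, 339 and 269.98 normalized counts in TKO and 332, 267 and 289 in DKO replicates 1 to 3, and the groups overlapped. The log2 fold change was 0.21, with a 95% interval of -0.18 to 0.59 and an adjusted p of 0.424 from edgeR.

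*Cdk5rap2* (chr4:70216856-70410443, minus strand), the pericentriolar gene of the set, had 407, 390.5 and 403 normalized counts in TKO, the narrowest range of any of the genes in that genotype. DKO replicates 1 to 3 had 632, 496 and 451, so the groups did not overlap. The log2 fold change was -0.40 (95% interval -0.70 to -0.093) and did not pass, with an adjusted p of 0.0757 from edgeR, although it did without DKO replicate 3 (-0.50, adjusted p = 0.0316 from edgeR) and with total counts only (adjusted p = 0.0300 from edgeR). It shares 365 exonic bases with a pseudogene, *Ywhaq-ps3*, on the same strand.

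**Figure D2:**
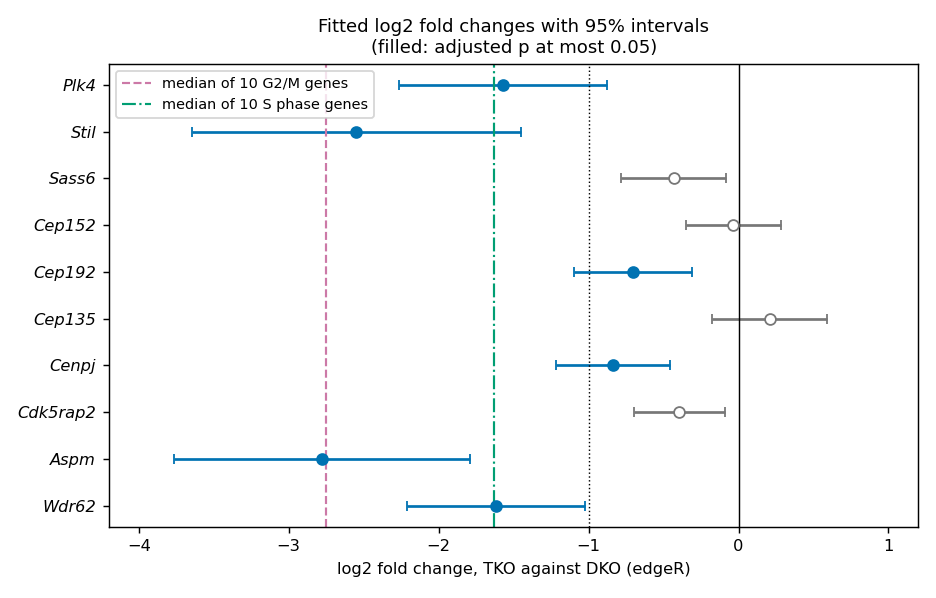
Fitted log2 fold change of TKO against DKO (horizontal axis) for the 10 genes, with 95% intervals and filled points for an adjusted p of at most 0.05. The dashed and dash-dotted lines are the medians of 10 G2/M genes (-2.75) and 10 S phase genes (-1.63), and the dotted line is the fold of the call rule. *Aspm* and *Stil* lie near the G2/M line, *Plk4* and *Wdr62* near the S phase line, and the other 6 to the right of both.

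To set the genes beside each other, levels were computed as TMM-scaled CPM per kilobase of annotated exon (GENCODE annotation of GRCm38). In DKO retinae the 10 genes lay close together, from 2.22 ± 0.203 for *Sass6* to 3.95 ± 0.606 for *Cenpj* (CPM per kilobase, SD, n = 3). The order of DKO levels was *Cenpj*, *Cep135*, *Cdk5rap2*, *Plk4*, *Cep192*, *Cep152*, *Wdr62*, *Stil*, *Aspm* and *Sass6*, and no neighbours in it differed by more than the larger of their SDs except *Cenpj* and *Cep135* at the top. In TKO retinae the levels were further apart, from 0.347 ± 0.224 for *Aspm* and 0.484 ± 0.332 for *Stil* to 2.92 ± 0.232 for *Cep152* and 3.76 ± 0.805 for *Cep135*. The TKO order was *Cep135*, *Cep152*, *Cdk5rap2*, *Cenpj*, *Cep192*, *Sass6*, *Plk4*, *Wdr62*, *Stil* and *Aspm*. In it the neighbours that lay within the larger of their SDs were *Cdk5rap2* and *Cenpj*, *Cenpj* and *Cep192*, *Plk4* and *Wdr62*, and *Stil* and *Aspm*. The 4 genes that fell by the full call rule were the 4 lowest per kilobase in TKO retinae, at 0.347 to 1.06. In DKO retinae they were at 2.37 to 3.14, among the others. Because the DKO levels lay close together, the TKO order largely restates the fold changes by which these 4 were called. The length takes in every annotated exon, and which transcripts were expressed was not measured.

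The genes were then set against markers of the cell cycle in the same library, a ratio that does not depend on how libraries are scaled. The summed level of 10 G2/M genes (such as cyclins and the kinase CDK1) was 77.6, 109.8 and 214 CPM in TKO replicates 1 to 3 and 1059, 790 and 491 CPM in DKO replicates 1 to 3. That of 10 S phase genes (such as MCM helicase subunits) was 236, 331 and 507 CPM in TKO and 1236, 1164 and 815 CPM in DKO. All 10 genes of each list fell by the full call rule, beside 4.38% of all genes tested. The log2 fold changes ran from -3.21 to -1.32 for the G2/M and from -2.29 to -1.04 for the S phase genes. The lists were chosen with earlier results of these data known. The study itself reports *Mki67*, *Ccnb1*, *Ccna2*, *Pcna*, *Mcm4* and *Cdc6* as downregulated, so 10 of 10 is not independent evidence. By adjusted p from edgeR, 7 of the G2/M and 3 of the S phase genes still fell when TKO replicate 2 was left out, 9 and 6 when DKO replicate 1 was, 9 and 5 when DKO replicate 2 was, and all 10 of each when any other retina was. The sums weigh each gene by its counts, and their makeup differed between the groups. *Ccna2*, which fell least of the G2/M genes, had 350 counts in TKO replicate 1 and 1459 in DKO replicate 1. *Top2a*, which fell most, had 115 and 4191. Ratios to the sums depend on this makeup. They were compared by exact two-sided permutation tests over the retinae, in which 3 against 3 cannot give a p below 0.1.

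*Aspm* kept nearly the same ratio to the summed G2/M counts in every library. It had 28.0, 26.5 and 32.7 counts per 1000 counts of the G2/M genes in TKO replicates 1 to 3 and 35.6, 34.4 and 35.5 in DKO replicates 1 to 3. The TKO values were all lower, with a log2 difference of -0.28, and the groups did not overlap (exact permutation p = 0.1, adjusted over the 10 genes 0.111). *Stil* had 11.7, 25.0 and 22.3 in TKO and 18.8, 24.0 and 20.6 in DKO per 1000, and the groups overlapped (log2 difference -0.17, exact permutation p = 0.9). TKO replicate 1, with its 10 read pairs of *Stil*, was the low value.

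*Plk4* and *Wdr62* fell by less than the summed counts of the G2/M genes, although by more than *Ccna2* of that list (log2 fold change -1.32). *Plk4* had 79.4, 50.04 and 47.3 counts per 1000 G2/M counts in TKO and 25.2, 30.3 and 28.2 in DKO, and *Wdr62* had 64.3, 34.9 and 33.6 in TKO and 18.8, 20.5 and 26.0 in DKO. Both were higher in every TKO than in every DKO library, by 1.04 and 0.97 on the log2 scale (exact permutation p = 0.1 each, adjusted 0.111). Relative to the S phase genes, the groups overlapped for both. *Plk4* had 26.1, 16.6 and 19.9 counts per 1000 S phase counts in TKO and 21.6, 20.6 and 17.0 in DKO, and *Wdr62* had 21.1, 11.6 and 14.2 in TKO and 16.1, 13.9 and 15.7 in DKO. The log2 differences were 0.063 and -0.0083 (exact permutation p = 1.0 each). Against the same S phase genes *Aspm* and *Stil* were lower in every TKO library, with log2 differences of -1.26 and -1.15 (exact permutation p = 0.1 each, adjusted 0.143).

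The other 6 genes had higher ratios to the G2/M genes in every TKO library than in every DKO library. The log2 differences were 1.77 for *Cenpj*, 1.92 for *Cep192*, 2.17 for *Sass6*, 2.22 for *Cdk5rap2*, 2.58 for *Cep152* and 2.80 for *Cep135* (exact permutation p = 0.1 each, adjusted 0.111). The G2/M sum in the denominator is itself lower in TKO, so any gene that fell clearly less than the sum has a higher ratio there. The lack of overlap therefore does not set these 6 genes apart, and its share over all genes tested was not counted. The ratios order the 10 genes by how far each departed from the sum. With the S phase genes as the denominator these 6 differences were between 0.79 and 1.82, and the groups overlapped only for *Cenpj* (exact permutation p = 0.2).

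**Figure D3:**
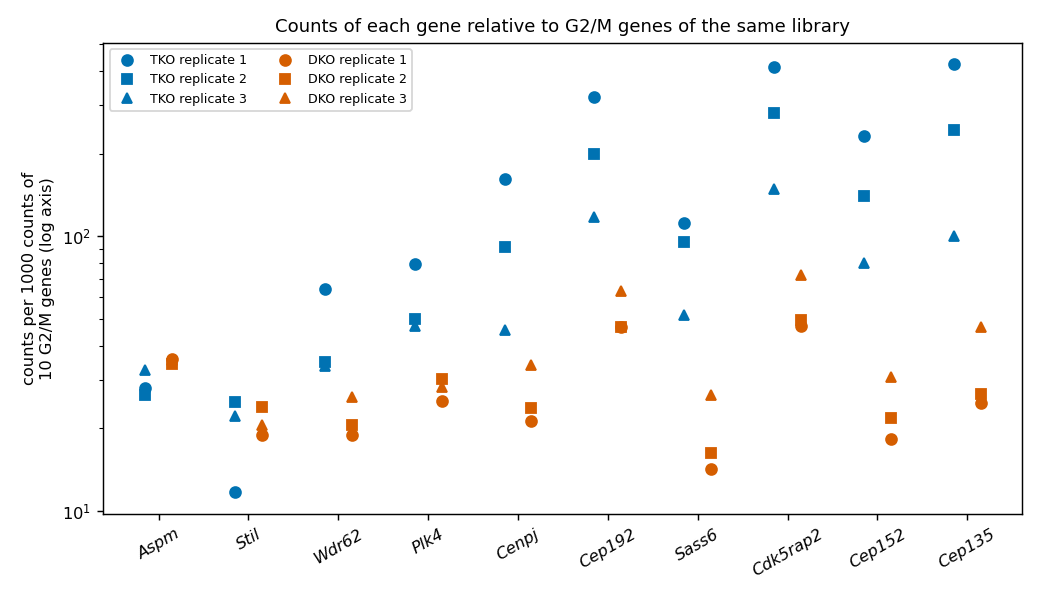
Counts of each gene per 1000 counts of 10 G2/M genes in the same library (vertical log axis), with TKO in blue, DKO in orange and symbols for the replicates. *Aspm* lies between 26.5 and 35.6 in all 6 libraries and *Stil* between 11.7 and 25.0, while the 6 genes from *Cenpj* to *Cep135* lie higher in every TKO than in every DKO library.

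Within the set, counts were also compared with *Cdk5rap2* in the same library, since its product serves the pericentriolar material of cells that do not divide as well. *Stil*, *Aspm*, *Wdr62* and *Plk4* were lower against *Cdk5rap2* in every TKO than in every DKO library, with log2 differences of -2.40, -2.503, -1.26 and -1.18, as were *Cenpj* and *Cep192*, with -0.46 and -0.30. The ratios of *Cep152* and *Cep135* were higher by 0.35 and 0.57, again without overlap (exact permutation p = 0.1 for each of these 8 genes, adjusted 0.113 over 9 comparisons). *Cdk5rap2* was itself lower in every TKO than in every DKO retina (log2 fold change -0.40, adjusted p = 0.0757 from edgeR), which raises each ratio to it in TKO. The ratio of *Sass6* to *Cdk5rap2* overlapped between the groups, with 270, 340 and 348 counts per 1000 in TKO and 301, 326 and 364 in DKO replicates 1 to 3 (log2 difference -0.054, exact permutation p = 0.7). With *Pcm1*, the scaffold of centriolar satellites, in place of *Cdk5rap2*, the *Cep152* ratio overlapped between the groups (log2 difference 0.041, exact permutation p = 0.6), as did that of *Cep135* (0.26, exact permutation p = 0.3). *Sass6* went the other way, and was lower against *Pcm1* in every TKO than in every DKO library (log2 difference -0.36, exact permutation p = 0.1).

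Replicates of a genotype differed in these genes in a shared way. DKO replicate 1 was the highest DKO retina for all 10 genes, and DKO replicate 3 was the lowest for 8 of them. Among TKO retinae, replicate 3 was the highest for 6 genes, including each of the 4 called lower, and replicate 1 for the other 4. Of the 6, *Cep192* was nearly level in replicates 3 and 1, at 316.6 and 316.5 normalized counts. How often these orders hold over all genes tested was not counted. DKO replicate 1 also had the largest and DKO replicate 3 the smallest G2/M sum of its genotype, and TKO replicate 3 the largest of its own. The summed level of 5 rod markers was highest in replicate 3 among DKO and lowest in replicate 3 among TKO retinae, at 8507, 8249 and 15810 CPM in DKO replicates 1 to 3 and 50010, 42660 and 24290 CPM in TKO replicates 1 to 3. The part of dividing cells and of rods in this spread was not tested.

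Among the genes outside the set whose log2 CPM followed the mean standardized profile of the 10 genes most closely over the 6 libraries were *G2e3*, *Kpnb1*, *Jade3*, *Smtn*, *Haus5*, *Rfwd3*, *Ccdc50*, *Mtch2* and *Smc1a*, with Pearson correlations from 0.992 to 0.995. This profile was -0.55, -0.83 and -0.48 in TKO replicates 1 to 3 and 1.24, 0.53 and 0.087 in DKO replicates 1 to 3, in units of SD. The likeness is a description over 6 points that differ in genotype, and *Haus5*, a subunit of the augmin complex, is itself a centrosomal gene.

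Other genes of the centrosome showed how far the differences extended. The nearest relatives by function, 25 further genes of centriole assembly, had a median log2 fold change of 0.012. By adjusted p from edgeR 0 of 25 fell and 4 of 25 rose, beside 9.2% and 7.35% of all genes tested. With 1 retina left out 0 to 1 fell, 0 of them without TKO replicate 2, and 2 to 5 rose, with 2 when TKO replicate 2, DKO replicate 1 or DKO replicate 2 was left out. With total counts only, 2 fell and 3 rose. In TKO, 4 of 25 were lower without overlap, beside 20.6%. Those that rose were *Mdm1* (1.12, adjusted p = 0.00914), *Cep120* (0.56, adjusted p = 0.00707), *Cep350* (0.49, adjusted p = 0.0185) and *Poc5* (0.37, adjusted p = 0.0295), all adjusted over all genes by edgeR. *Poc5* was named after its values were seen. *Mdm1* encodes a protein of the centriole and the photoreceptor cilium, and had 2480, 1885 and 1387 normalized counts in TKO and 915, 818 and 919 in DKO replicates 1 to 3. The lowest values were those of *Poc1a* (-0.46, adjusted p = 0.150 from edgeR) and *Cntrob*, centrobin of the daughter centriole (-0.42, adjusted p = 0.0756 from edgeR), neither of which passed.

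The 7 genes that control the turnover of PLK4 and SAS-6 had 0 of 7 passing in either direction, beside 9.2% lower and 7.35% higher of all genes tested. Their median was -0.098, and 1 of 7 rose when TKO replicate 3 was left out. *Trim37* was lowest at -0.17 and *Btrc*, which encodes the βTrCP subunit that marks PLK4 for degradation, highest at 0.25 (adjusted p = 0.0629 from edgeR). *Fzr1* was at -0.10 and *Fbxw5*, of the ligase that acts on SAS-6, at 0.085. *Skp1a*, the most counted of the list, was at -0.098. With so few genes, 0 of 7 is near the shares of all genes and does not set this list apart.

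Among 14 genes of centriolar appendages and centrosome cohesion, 2 fell and 2 rose by adjusted p, beside 9.2% and 7.35% of all genes tested, with a median of -0.085. The number that fell was 0 when TKO replicate 2 was left out, 1 when TKO replicate 1, DKO replicate 1 or DKO replicate 2 was, and 4 when DKO replicate 3 was or with total counts only. The number that rose was 1 when TKO replicate 2 or DKO replicate 1 was left out and 2 otherwise. *Nek2*, a kinase that dissolves the link between centrosomes at the entry to mitosis, had 28.7, 45.3 and 89.6 normalized counts in TKO and 370, 326 and 168 in DKO replicates 1 to 3 (log2 fold change -2.41, adjusted p = 0.0103 from edgeR). Its values followed the pattern of *Aspm* and *Stil*, with replicate 3 of each genotype nearest to the other group. *Cep83*, of the distal appendages, fell by 0.57 on the log2 scale (adjusted p = 0.0190 from edgeR). *Cep164*, also of the distal appendages and needed to form cilia, rose by 1.22 (adjusted p = 0.00691), and *Crocc*, which encodes rootletin of the ciliary rootlet, rose by 0.95 (adjusted p = 0.0127), both from edgeR.

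Of 16 pericentriolar and γ-tubulin genes, 3 fell and 1 rose by adjusted p, beside the same 9.2% and 7.35%, with a median of -0.086. The number that fell was 1 when either TKO replicate 1 or 2 was left out, 0 when either DKO replicate 1 or 2 was, 4 when replicate 3 of either genotype was, and 5 with total counts only. The number that rose stayed at 1 only when TKO replicate 3 was the retina left out, and was 0 with total counts only. *Cep72* fell by 0.93 on the log2 scale (adjusted p = 0.0182 from edgeR), while *Ninl* at -0.80 did not pass (adjusted p = 0.0736). The others that fell, named after their values were seen, were *Nedd1* (-0.79, adjusted p = 0.0114) and *Tubg1* (-0.35, adjusted p = 0.0351, both from edgeR), which encode a γ-tubulin adaptor and γ-tubulin itself. *Ssx2ip* rose by 0.41 (adjusted p = 0.0403 from edgeR), *Akap9* was at 0.39 (adjusted p = 0.123) and *Pcm1*, the most counted, was at -0.079. Augmin, the complex that branches spindle microtubules, had 2 of 8 subunits lower and 0 higher by adjusted p. These counts stood beside 9.2% and 7.35% of all genes tested, and the median of the 8 was -0.28. The number lower was 0 when replicate 1 or 2 of either genotype was left out, 1 when TKO replicate 3 was and 3 when DKO replicate 3 was. *Haus3* fell by 1.01 (adjusted p = 0.0234 from edgeR) and *Haus6* by 0.64 (adjusted p = 0.0494), and *Haus5*, *Haus2* and *Haus8* were at -0.36, -0.096 and 0.12 and did not pass.

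The genes of the mitotic spindle pole differed most of these lists, with a median of -1.42. By adjusted p 7 of 13 were lower and 0 higher, beside 9.2% and 7.35% of all genes tested. All 7 were also past the fold of the call rule, beside 4.38% of all genes tested that were called lower. The number that fell was 5 when TKO replicate 2 was left out, 6 when DKO replicate 2 was, and 7 when any other retina was, and 1 gene of the list rose when replicate 3 of either genotype was left out. *Hmmr*, which encodes a spindle-pole adaptor, had 22.9, 46.3 and 102 normalized counts in TKO and 535, 454 and 237 in DKO replicates 1 to 3, and *Tpx2*, the activator of Aurora A, had 81.4, 109.5 and 227 in TKO and 1072, 900.0 and 527 in DKO. Both fell without overlap, with log2 fold changes of -2.85 (adjusted p = 0.00957) and -2.59 (adjusted p = 0.00733) from edgeR. At the other end *Gpsm2*, which orients the spindle, was at 0.90 and did not pass (adjusted p = 0.0654 from edgeR), and *Katna1* was at 0.22. *Ckap5*, a microtubule polymerase and the most counted of the list, was at -0.035.

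Of 21 further genes of inherited microcephaly, 20 were found and tested, *Knl1* under its older symbol *Casc5* and *Map11* not found. By adjusted p from edgeR 6 of 20 fell and 1 rose, beside 9.2% and 7.35% of all genes tested. All 6 were also past the fold of the call rule, beside 4.38% of all genes tested that were called lower. The median was -0.13. The number that fell was 4 when TKO replicate 2 was left out and 5 or 6 when any other retina was, and it was 9 with total counts only. The number that rose was 0 when replicate 1 or 2 of either genotype was left out and with total counts only. *Casc5*, a kinetochore scaffold, fell by 2.76 (adjusted p = 0.00700) and *Ncaph*, a condensin subunit, by 2.56 (adjusted p = 0.00914) on the log2 scale. The others that fell, named after their values were seen, were *Ncapd2*, *Cenpe*, *Lmnb1* and *Kif14*, of condensin, the kinetochore, the nuclear lamina and cytokinesis. *Wdfy3*, which serves autophagy, rose by 0.45 (adjusted p = 0.0423 from edgeR), and *Rrp7a* was at 0.34 (adjusted p = 0.0857).

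**Figure D4:**
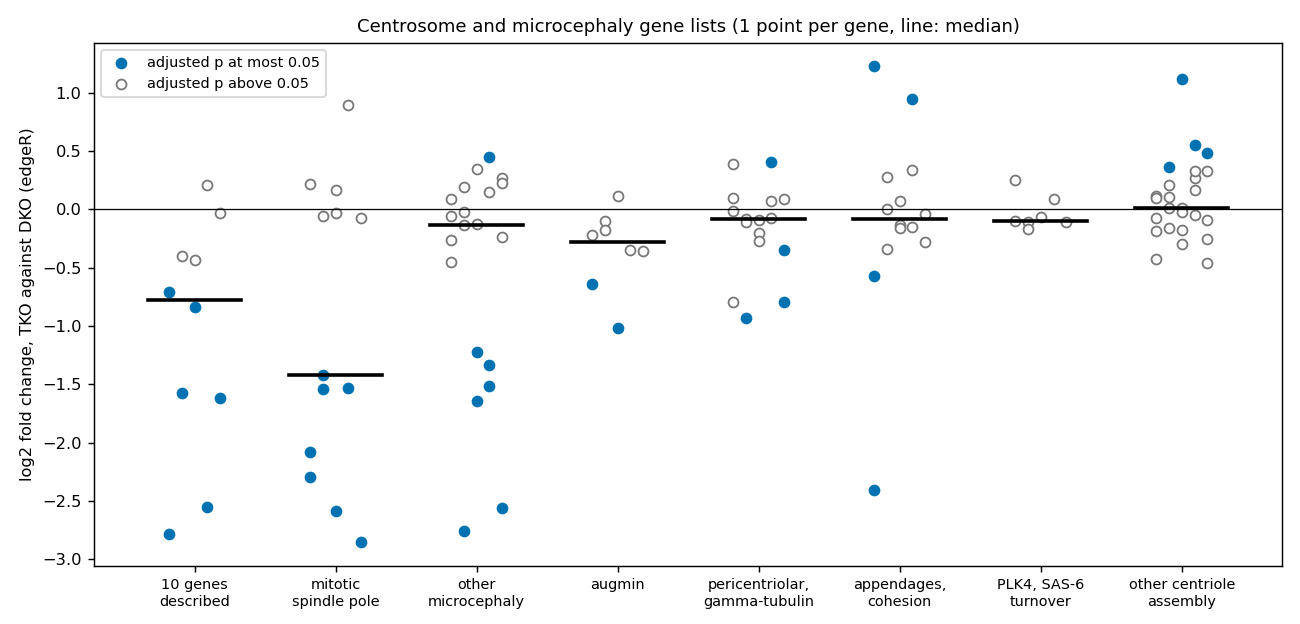
Log2 fold change of TKO against DKO (vertical axis) for each gene of the 10 described and of 7 lists of centrosome and microcephaly genes, with filled points for an adjusted p of at most 0.05 and a line at the median of each list. The spindle-pole list has a median of -1.42, and the list of other centriole assembly genes a median of 0.012 with none of its genes lower by adjusted p.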

How the data were processed

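RNA-seq libraries (TruSeq Stranded mRNA) of 3 TKO and 3 DKO retinae were analysed. The values deposited by the authors are raw counts per gene symbol and library, without normalization. The methods of the study name STAR and HTSeq with Ensembl release 92, at most 10 mismatches and 3 alignments per read, whereas the submitters' processing notes name TopHat2 and featureCounts, so the aligner and counter are not certain, and neither gives the strand setting. Reads with more than 1 alignment may be shared between similar genes.

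Groups and replicate numbers were taken from the sample labels. Genes with a summed count under 10 were removed, as in the methods of the study. edgeR 4.0.16 in R 4.3.3 (TMM, quasi-likelihood test, default arguments) was fitted to all 16904 remaining genes with Benjamini-Hochberg adjustment. The mean count of the call rule used size factors of DESeq2 1.42.0, which was also run as an alternative. The standard error is the log2 fold change over the square root of F, and intervals use the t distribution with edgeR's degrees of freedom. The test was also run on simulated counts in which each gene varied independently. The 10 genes varied together between replicates, so that run does not show how the test behaves here. The p-values set the difference between groups against the spread between these retinae. The study gives 3 retinae per genotype and does not say which shared a mouse or a litter. If some did, that spread may understate the variation between animals. At 10343907 to 14203098 counts per library the least counted of the 10 genes had 10 read pairs in a retina, and the spread between retinae is larger than counting error.

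The 10 genes and all lists were chosen with earlier results of these data known. Genes of the lists were named as those with the 2 lowest, the 2 highest and the most counted per list. 2 list genes were found under an older symbol. A gene that the rule for genes of like profile names is not reported here. As alternatives, DESeq2, 3 scalings other than TMM, 3 low-count filters, a robust dispersion fit, other thresholds, the replicate number as a block, other denominators for ratios, and each retina left out in turn were run. Exact permutation tests were two-sided. Exon lengths and coordinates came from GENCODE M21 and promoters from RefSeq, both of GRCm38. The tumor RNA-seq and the ATAC-seq of the study were not analysed here.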

Additional observations from a re-analysis of the deposited data

How the results depend on the processing

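Of the 10 genes, 4 were called lower under DESeq2, relative log expression or upper quartile scaling, robust dispersion and each other filter, and the same 4 genes were called in each. With total counts only, 5 were called, and 79.9% of all called genes were lower in TKO instead of 69%. An adjusted p of at most 0.01 left 2 called, *Aspm* and *Wdr62*, and leaving out 1 retina gave 2 to 4. With the replicate number as a block 0 of the 10 were called (and 0 to 1 genes of each other list fell; adjusted p from edgeR of 0.0714 for *Plk4*, 0.0688 for *Stil*, 0.0599 for *Aspm* and 0.0577 for *Wdr62*). The sample labels do not say whether the numbers pair the retinae. Same-numbered retinae correlated at 0.094, -0.085 and -0.235 in their deviations from the group means, and differently numbered ones at -0.352 to 0.342. With 3 retinae per genotype, these values cannot decide whether the numbers mark a pairing. Over all genes 1074 were called, against 90 with the replicate block, of which 88 were also called without it, 2721 with no minimum fold change, 421 at an adjusted p of at most 0.01, and 471 to 1500 with 1 retina left out. *Cep152* changed sign without TKO replicate 2 and without DKO replicate 1 (-0.12 to 0.055 over the fits with 1 retina left out). The median of other centriole assembly genes was -0.15 with total counts only and -0.018 to 0.11 with 1 retina left out, and that of appendage and cohesion genes -0.14 to 0.0084. The cause was not tested in these cases. The TKO libraries held as few as 10 read pairs of *Stil*, which limits its fold.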
